A study of Mus musculus with 12 samples.

Results

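The NF-κB subunits and the IκB proteins were read as 10 genes in a table of mRNA counts from mouse spleen cells. They were taken by symbol, and all 10 were found among the 20778 gene symbols of the table. The 5 subunit genes were Nfkb1, Nfkb2, Rel, Rela and Relb, and the 5 genes of the IκB family were Nfkbia, Nfkbib, Nfkbie, Nfkbiz and Bcl3. All 10 were expressed well above the filter on low counts in every library.

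The study asked how the expression profile of CD8 T cells changes with different ways of activation. The cells came from spleens of C57BL/6 mice, were selected with MojoSort magnetic beads and spent 6 h in culture. No genetic change is named for any group. One group was left untreated (Naïve). The αCD3 group received an antibody to CD3, through which the T cell receptor signals, at 1 µg/ml. The IFNγ group received the cytokine interferon gamma at 70 ng/ml, and the LPS group received bacterial lipopolysaccharide, which is sensed by Toll-like receptor 4, at 1 µg/ml. Label fields disagree on the αCD3 and LPS doses (µg/ml against mg/ml), so the unit of both is uncertain. The mice were 6 weeks old by the labels, whereas the methods of the study name an older range, so their age is uncertain. Each group had 3 libraries, 12 in all, and nothing states that they came from separate mice or cultures, so the p-values measure the spread between these libraries only.

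NF-κB is a family of dimeric transcription factors. In resting cells the dimers are held in the cytoplasm by IκB proteins, and signals from antigen, cytokine or Toll-like receptors lead to phosphorylation and loss of the IκB protein and to entry of the dimer into the nucleus. RelA, RelB and c-Rel carry an activation domain, while p50 and p52 are cut from the precursors encoded by Nfkb1 and Nfkb2. Several genes of the system, Nfkbia among them, are themselves targets of NF-κB. Messenger RNA levels do not measure this activation directly.

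Libraries held 10196248 to 27610175 counts. In all 4 groups the replicate 1 library stood apart from the others. A chi-square statistic per gene between 2 libraries of a group was 21.3 to 55.2 for pairs with replicate 1 and 4.67 to 5.94 for replicate 2 against replicate 3. Summed erythroid markers were 338 to 575 CPM in the replicate 1 libraries and 1299 to 4142 CPM in the rest, where CPM is a gene's count scaled to a common library size after TMM. The bead-selected cells carried T cell markers, with Cd8a at 234 ± 32.3 CPM in Naïve (SD, n = 3), but B cell markers were also high, with Cd79a, a part of the B cell receptor, at 903 ± 67.7 CPM in Naïve. Over the 12 libraries the summed markers of CD4 T cells ran from 66.9 to 122 CPM, of dendritic cells from 48.1 to 121 CPM, of neutrophils from 150 to 302 CPM and of NK cells from 9 to 35.2 CPM. The labelled cell type thus did not account for all RNA, and in such bulk samples a change in the share of a cell type cannot be told apart from a change of RNA per cell.

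**Figure D1:**
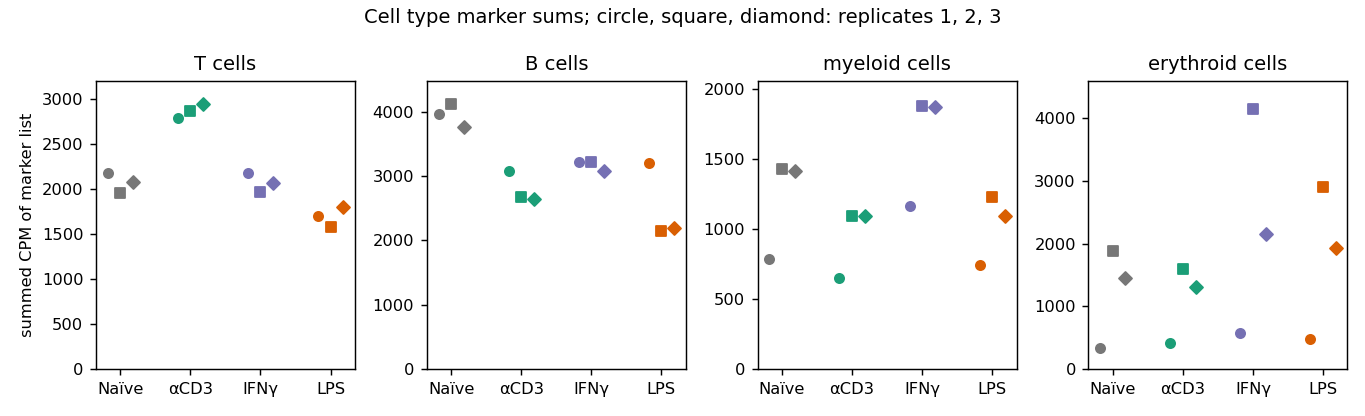
Summed CPM of marker genes (vertical axis) of T cells, B cells, myeloid cells and erythroid cells in each library, by group (horizontal axis), with circles, squares and diamonds for replicates 1, 2 and 3. Erythroid and myeloid sums were lower in replicate 1 than in the other 2 replicates of every group, and B cell sums were 2141 CPM or more in all 12 libraries.

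The 10 genes lie on 7 chromosomes of GRCm38 (mm10) in the GENCODE M21 annotation, and all are protein-coding. Nfkb1 is at chr3:135584655-135691547 (minus strand), Nfkb2 at chr19:46304320-46312385 (plus) and Rel at chr11:23736847-23770970 (minus). Rela is at chr19:5637483-5648130 (plus) and Relb at chr7:19606217-19629438 (minus). Nfkbia is at chr12:55489410-55492647 (minus), Nfkbib at chr7:28758251-28767512 (minus) and Nfkbie at chr17:45555703-45563169 (plus). Nfkbiz is at chr16:55811375-55838899 (minus) and Bcl3 at chr7:19808462-19822770 (minus). Genes on the opposite strand share 16.4% of the exonic bases of Nfkbib and 6.5% of those of Bcl3. For Nfkb2 the share is 18.1%. Whether reads were counted by strand is not given in the sources used here, so these 3 values are uncertain to that extent.

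The promoters were searched for the κB consensus, the 10-base site that NF-κB dimers bind, on both strands. The windows ran from 250 bases before to 50 bases after a RefSeq transcript start (GRCm38.p6), and 2779 of 32851 windows of this length in the mouse table held a match (8.46%). Windows were at hand for 7 of the 10 genes, with 9 windows in all, and 7 of these, from 5 genes, held a match. These were Nfkbia, Nfkbie, Rel, Nfkb2 and Bcl3, and no match was found in the windows of Nfkbib and Rela. The windows of Nfkb2 at chr19:46305445-46305744 and chr19:46305680-46305979 overlap and share a match, which is thus counted in both. A match describes letters and is no evidence of binding. The matched stretches are shown so that their letters can be compared between genes. All 5 genes were higher in LPS than in Naïve, and so was Nfkbib, whose window held no match. The stretches are written 5′ to 3′ on the strand of the gene, with the match in capitals. Those of Nfkbia, Nfkbie and Rel are the 120 bases before the start, and the rest are 30 bases around the match.

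Nfkbia, chr12:55492648-55492767, minus strand, match beginning at -29: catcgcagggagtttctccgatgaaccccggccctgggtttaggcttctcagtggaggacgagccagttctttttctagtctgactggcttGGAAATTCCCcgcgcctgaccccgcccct
Nfkbie, chr17:45555580-45555699, plus strand, match beginning at -106: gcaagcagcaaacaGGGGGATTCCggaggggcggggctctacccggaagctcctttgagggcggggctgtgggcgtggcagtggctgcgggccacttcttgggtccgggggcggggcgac
Rel, chr11:23770970-23771089, minus strand, match beginning at -92: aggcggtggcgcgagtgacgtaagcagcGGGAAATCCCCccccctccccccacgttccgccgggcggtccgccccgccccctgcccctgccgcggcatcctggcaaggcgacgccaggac
Nfkb2, chr19:46304688-46304717, plus strand, match beginning at -39: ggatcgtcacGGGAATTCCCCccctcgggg
Nfkb2, chr19:46304716-46304745, plus strand, match beginning at -11: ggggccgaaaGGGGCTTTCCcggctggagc
Nfkb2, chr19:46305449-46305478, plus strand, match beginning at -236 from a start further downstream: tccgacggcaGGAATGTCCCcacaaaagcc
Nfkb2, chr19:46305695-46305724, plus strand, match beginning at 10 after that start: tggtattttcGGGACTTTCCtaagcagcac
Bcl3, chr7:19822734-19822763, minus strand, match beginning at 2 after the start: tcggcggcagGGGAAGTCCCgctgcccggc

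Nfkb2 had 3 windows and each other gene 1, so more sequence was searched for its 4 stretches. The stretches of Rel, Bcl3 and the first of Nfkb2 read as a site on both strands. The match in Nfkbia lies on the opposite strand, as does that at -236 in Nfkb2.

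In Naïve the transcripts of Nfkbia, Nfkb1 and Bcl3 were the most abundant per length. Length was the mean over protein-coding transcripts, and the order and steps given here depend on that choice. For Rela this mean was 1539.5 bases and the longest transcript 2716, and for Relb they were 1654 and 3273. Levels in CPM per kilobase were 141 ± 6.48 for Nfkbia, 140 ± 0.78 for Nfkb1 and 128 ± 12.5 for Bcl3 (SD, n = 3). With these lengths the 3 genes did not differ beyond their spread. Relb (102 ± 5.66) and Rela (99.2 ± 10.2) followed and overlapped each other. Nfkbib (70.2 ± 2.74), Nfkb2 (62.2 ± 5.57) and Rel (54.9 ± 2.35) formed the next step in CPM per kilobase, each within the summed SDs of its neighbour. Nfkbie (31.0 ± 4.2) and Nfkbiz (27.9 ± 1.18) were lowest and lay within the spread of Nfkbie. After LPS Nfkbia at 373 ± 12.2, Nfkb1 at 310 ± 7.13 and Bcl3 at 265 ± 50.3 CPM per kilobase were again the highest. The order changed below them. Nfkbib (143 ± 14) and Nfkb2 (124 ± 1.62) were no longer below Relb (123 ± 5.5) and Rela (115 ± 9.53). Nfkbiz was at 91.8 ± 6.48, while Nfkbie (61.2 ± 4.36) and Rel (67.0 ± 7.39) were lowest and overlapped.

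**Figure D2:**
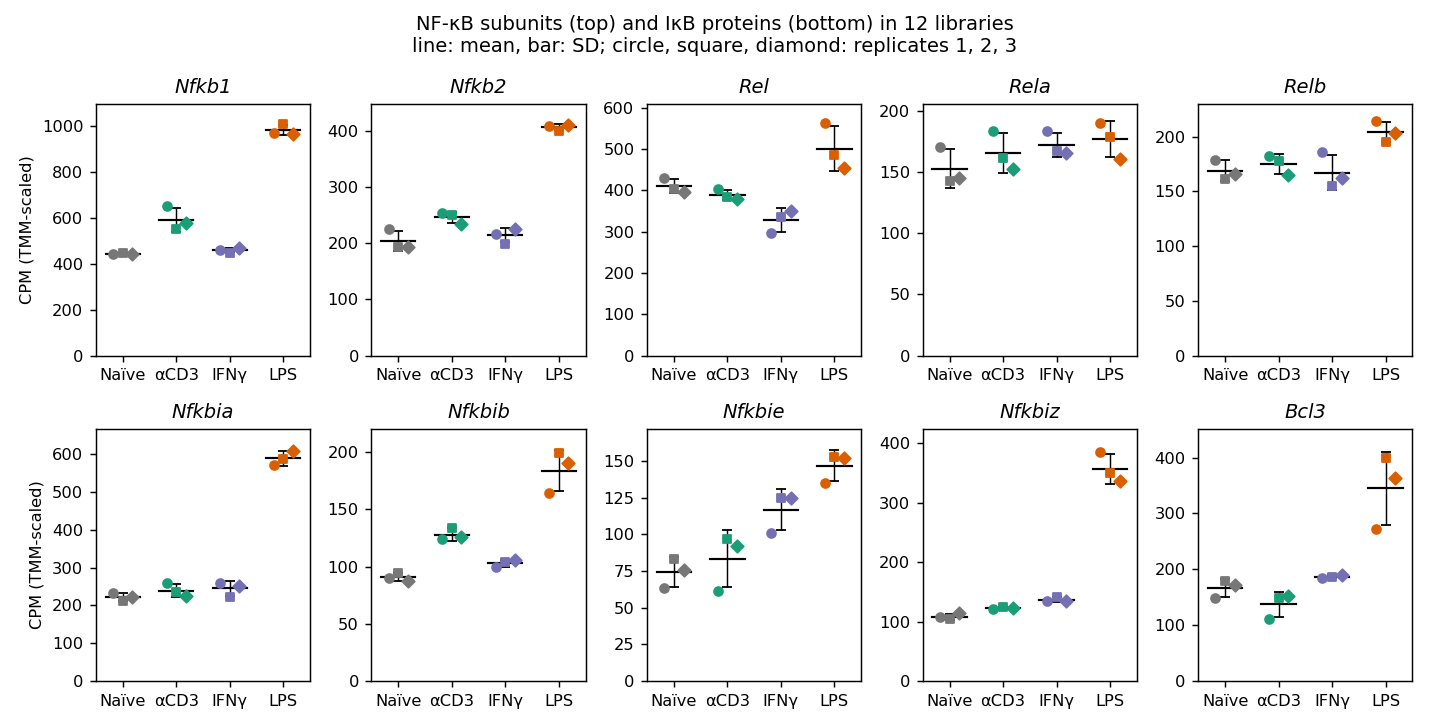
CPM of each of the 10 genes (vertical axes, from 0) in the 12 libraries by group, with the mean as a line, the SD as a bar, and circles, squares and diamonds for replicates 1, 2 and 3. The LPS libraries lie above all others for every gene but Rela, where the groups overlap.

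LPS gave the most calls. Against Naïve, 9 of the 10 genes rose, all 5 IκB genes and 4 of the 5 subunits, and none fell. Over all 12122 genes tested, 26.9% were called higher and 22.3% lower, where called means an adjusted p under 0.05 in the quasi-likelihood test of edgeR with Benjamini-Hochberg adjustment over all genes. The median log2 fold change of the 10 genes was 1.01, compared with -0.01 over all genes. With replicate number as a block in the fit all 10 were called, and all 10 were called without the replicate 1 libraries. Of all genes, 59.5% and 55.1% were called in these fits, against 49.3% in the first.

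Nfkbiz encodes IκBζ, a nuclear IκB protein that acts with p50 on secondary response genes. It was counted at 107, 105 and 114 CPM in Naïve and at 386, 350 and 337 CPM in LPS. The 3 LPS libraries stood far above those of all other groups. Nfkbiz rose by 1.72 on the log2 scale (SE 0.06, 95% interval 1.58 to 1.86, edgeR adjusted p = 3.39e-07), a 3.29-fold difference, the largest among the 10 genes.

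Nfkbia encodes IκBα, the inhibitor that is degraded and remade within hours of a stimulus. It was at 232, 212 and 223 CPM in Naïve and at 571, 587 and 609 CPM in LPS, and the groups were far apart. Its log2 fold change was 1.40 (SE 0.08, edgeR adjusted p = 1.11e-06). Its promoter stretch above carries a match close to the start.

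Bcl3, a nuclear IκB protein that binds p50 and p52 homodimers, was at 148, 179 and 172 CPM in Naïve and at 272, 399 and 363 CPM in LPS. The lowest LPS library was replicate 1, yet it lay above every library of the other groups. The log2 fold change of Bcl3 was 1.05 (SE 0.15, edgeR adjusted p = 0.000224).

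Nfkbib, which encodes the cytoplasmic inhibitor IκBβ, was at 90.4, 94.4 and 87.3 CPM in Naïve and at 164, 199 and 191 CPM in LPS. Nfkbie, which encodes IκBε, was at 63.6, 83.5 and 75.9 CPM in Naïve and at 135, 153 and 152 CPM in LPS. Neither gene overlapped between the 2 groups, and both were about doubled, with log2 fold changes of 1.02 (SE 0.08, edgeR adjusted p = 3.77e-06) for Nfkbib and 0.98 (SE 0.17, edgeR adjusted p = 0.000787) for Nfkbie.

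Among the subunits, the precursor genes moved most. Nfkb1 was at 441, 446 and 442 CPM in Naïve and at 970, 1006 and 965 CPM in LPS. Nfkb2 was at 225, 193 and 193 CPM in Naïve and at 408, 400 and 410 CPM in LPS. For both precursor genes all LPS libraries were higher than any library of the other groups. The log2 fold changes were 1.15 for Nfkb1 (SE 0.06, edgeR adjusted p = 1.11e-06) and 1.00 for Nfkb2 (SE 0.07, edgeR adjusted p = 3.96e-06).

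The 3 genes with an activation domain moved less. Rel, which encodes c-Rel, was at 430, 404 and 396 CPM in Naïve and at 562, 485 and 455 CPM in LPS. Relb, the partner of p52 in the alternative pathway, was at 179, 161 and 166 CPM in Naïve and at 214, 195 and 203 CPM in LPS. Both rose, with no overlap between the groups but narrow gaps. The log2 fold change was 0.29 for Rel (SE 0.09, edgeR adjusted p = 0.0192) and 0.27 for Relb (SE 0.08, edgeR adjusted p = 0.0148), and both calls were lost with library size as the only scaling and without Naïve replicate 2, that of Rel also without Naïve replicate 3 or LPS replicate 1.

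Rela, which encodes the widely expressed p65 subunit, was at 171, 143 and 145 CPM in Naïve and at 190, 179 and 161 CPM in LPS. The groups overlapped. Its log2 fold change was 0.21 with a 95% interval of -0.01 to 0.43 and an edgeR adjusted p of 0.102. Within replicate numbers the LPS library was higher by 0.15 to 0.33 on the log2 scale, and with the replicate block Rela was called in edgeR at an adjusted p of 0.00334. Without the replicate 1 libraries it was called as well, with a log2 fold change of 0.24.

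**Figure D3:**
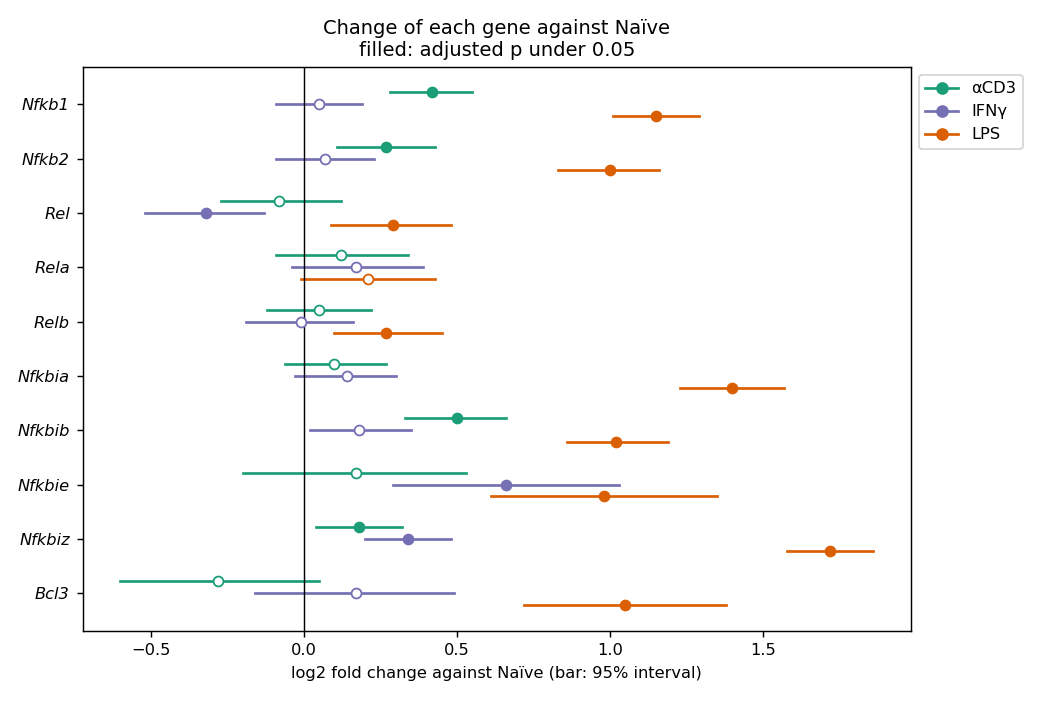
Log2 fold change against Naïve (horizontal axis) of each gene in αCD3, IFNγ and LPS, with 95% intervals from the edgeR fit and filled symbols for an adjusted p under 0.05. LPS points lie between 0.21 (Rela) and 1.72 (Nfkbiz), and the highest αCD3 or IFNγ point is 0.66 (Nfkbie in IFNγ).

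Summed marker levels of several cell types also differed in LPS. The 12 T cell markers summed to 1573 to 1801 CPM in LPS and to 1949 to 2181 CPM in Naïve, and the 12 B cell markers to 2141 to 3203 CPM in LPS and to 3764 to 4128 CPM in Naïve. CD4 T cell markers summed to 66.9 to 80.8 CPM in LPS and to 103 to 122 CPM in Naïve, and neutrophil markers to 159 to 187 CPM in LPS and to 197 to 302 CPM in Naïve. The sums of these 4 lists did not overlap between the groups and were lower where the 9 genes were higher. The sums of the 15 myeloid markers overlapped, with 743 to 1230 CPM in LPS and 784 to 1428 CPM in Naïve, and 10 of these markers were called lower in LPS and none higher. None of these 5 lists had a gene at 0 in either group. Within each of the 3 replicate numbers erythroid markers were higher in LPS (481 to 2900 CPM, with 338 to 1882 CPM in Naïve) and NK cell markers lower (9 to 21.3 CPM, with 13.9 to 33.6 CPM in Naïve), and the ranges of the groups overlapped. The part of cell composition in the change of the 9 genes was not tested.

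T cell receptor stimulation gave 4 calls. In αCD3 against Naïve, 4 of the 10 genes rose and none was called lower, beside 22.9% of all genes called higher and 15.7% lower. The median log2 fold change of the 10 genes was 0.14, against -0.02 over all genes. The genes that rose were Nfkb1, Nfkb2, Nfkbib and Nfkbiz.

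Nfkb1 was at 649, 549 and 576 CPM in αCD3 and lay above all Naïve libraries, with a log2 fold change of 0.42 (SE 0.06, edgeR adjusted p = 0.000508). Nfkbib was at 124, 134 and 126 CPM in αCD3, also clear of Naïve, with a log2 fold change of 0.50 (SE 0.08, edgeR adjusted p = 0.000511). Within replicate numbers Nfkbib differed by 0.45 to 0.53 on the log2 scale. For Nfkb1 and Nfkbib the same call was made in all 14 alternatives.

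Nfkb2 was at 254, 250 and 234 CPM in αCD3, against 193 to 225 CPM in Naïve. Its log2 fold change was 0.27 (SE 0.07, edgeR adjusted p = 0.0146), and the call was lost in 5 of 14 alternatives, among them those without Naïve replicate 2, without Naïve replicate 3 and without αCD3 replicate 2. Nfkbiz was at 121, 125 and 122 CPM in αCD3, just above the Naïve range. Its log2 fold change of 0.18 (SE 0.06, edgeR adjusted p = 0.0466) kept its call in 4 of 14 alternatives and lost it on leaving out any one of the 6 libraries compared.

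The other 6 genes did not pass the test in αCD3. Bcl3 was at 111, 148 and 152 CPM against 148 to 179 CPM in Naïve, with a log2 fold change of -0.28 (95% interval -0.60 to 0.05, edgeR adjusted p = 0.162). It was lower in αCD3 in each of the 3 replicate numbers, with log2 ratios of -0.41 to -0.18. Its log2 fold change was -0.15 without αCD3 replicate 1 alone, and Bcl3 was called lower with the replicate block (edgeR adjusted p = 0.0208) and without the replicate 1 libraries (edgeR adjusted p = 0.0136). Nfkbie was at 61.3, 97.2 and 92.1 CPM in αCD3, and its low library was replicate 1. The log2 fold change of Nfkbie was 0.17, with 0.35 on leaving out αCD3 replicate 1 and 0.041 on leaving out αCD3 replicate 2. Without the replicate 1 libraries Nfkbie was called higher, with a log2 fold change of 0.26 (edgeR adjusted p = 0.00696), so that 6 of the 10 genes were then called, beside 48.8% of all genes. Rel, Rela, Relb and Nfkbia had log2 fold changes between -0.08 and 0.12.

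The 12 T cell markers summed to 2789 to 2948 CPM in αCD3, above Naïve, and the 12 B cell markers to 2644 to 3075 CPM, below Naïve. CD4 T cell markers summed to 79.2 to 94.7 CPM in αCD3 and to 103 to 122 CPM in Naïve, and neutrophil markers to 150 to 171 CPM in αCD3 and to 197 to 302 CPM in Naïve, both without overlap. The 15 myeloid markers summed to 648 to 1092 CPM in αCD3 and to 784 to 1428 CPM in Naïve, and 8 of them were called lower and none higher (median log2 fold change -0.86). Mpeg1, the most abundant of them, had a mean of 513 CPM in αCD3 and 395 CPM in Naïve and was not called. Dendritic cell markers (65.5 to 79.4 CPM in αCD3, 73.7 to 121 CPM in Naïve) and NK cell markers (11.8 to 26.2 CPM in αCD3, 13.9 to 33.6 CPM in Naïve) were lower in αCD3 in each replicate number, and the dendritic markers Flt3 and Itgax were called lower. The part of these shifts in the αCD3 results was not tested.

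IFNγ gave 3 calls. Against Naïve, 2 of the 10 rose and 1 fell, beside 8.17% of all genes called higher and 4.27% lower. The median log2 fold change of the 10 genes was 0.15, against -0.02 over all genes. With the replicate block 5 genes were called, the added ones being Rela (log2 fold change 0.17, edgeR adjusted p = 0.023) and Nfkbib (0.18, edgeR adjusted p = 0.0372). In that fit 24.9% of all genes were called, against 12.4% without the block. Neither Rela (edgeR adjusted p = 0.0538) nor Nfkbib (edgeR adjusted p = 0.0527) was called without the replicate 1 libraries, and the log2 fold change of Rela was 0.26 without Naïve replicate 1 and 0.11 without IFNγ replicate 1.

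Nfkbie was at 101, 125 and 125 CPM in IFNγ, above the Naïve range. It rose by 0.66 on the log2 scale (SE 0.17, 95% interval 0.29 to 1.03, edgeR adjusted p = 0.027), and within replicate numbers by 0.59 to 0.72. Nfkbiz was at 134, 141 and 135 CPM in IFNγ and rose by 0.34 (SE 0.06, edgeR adjusted p = 0.00638). The call of Nfkbie was lost on leaving out Naïve replicate 1, Naïve replicate 3, IFNγ replicate 2 or IFNγ replicate 3, whereas that of Nfkbiz was lost only with library size as the scaling.

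Rel was at 296, 336 and 351 CPM in IFNγ, below the 396 to 430 CPM of Naïve. Its log2 fold change was -0.32 (SE 0.09, 95% interval -0.52 to -0.13, edgeR adjusted p = 0.0351). In the fit with group alone after TMM and all 12 libraries, Rel was the only one of the 10 genes called lower against Naïve. The call was lost without Naïve replicate 1, Naïve replicate 2, Naïve replicate 3, IFNγ replicate 1 or IFNγ replicate 2, and in a fit of the 6 libraries alone. It stood with the block (edgeR adjusted p = 0.0172) and without the replicate 1 libraries, where the log2 fold change was -0.24.

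In IFNγ the 12 T cell markers summed to 1962 to 2175 CPM, within the Naïve range, and the 12 B cell markers to 3078 to 3228 CPM, below Naïve. The 15 myeloid markers summed to 1161 to 1878 CPM in IFNγ and to 784 to 1428 CPM in Naïve, and the erythroid markers to 575 to 4142 CPM in IFNγ and to 338 to 1882 CPM in Naïve. Both sums were higher in IFNγ in each of the 3 replicate numbers. Among the myeloid markers Mpeg1 was called higher, with 970 CPM in IFNγ and 395 CPM in Naïve (log2 fold change 1.30, edgeR adjusted p = 0.0372), and the median log2 fold change of the 15 was -0.22. Dendritic cell markers summed to 48.1 to 74.8 CPM in IFNγ and to 73.7 to 121 CPM in Naïve and were lower in each replicate number, Flt3 and Itgax being called lower. CD4 T cell markers summed to 91.3 to 112 CPM in IFNγ and to 103 to 122 CPM in Naïve. They were also lower in each replicate number, by little in replicate 3 (112 and 113 CPM), and none of them was called. The part of these sums in the IFNγ results was not tested.

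The treatments were then compared with each other. These comparisons share libraries with those against Naïve, so their values stand beside the earlier ones and are not independent of them. IFNγ against αCD3 asked whether the cytokine and the receptor differ, and 5 of the 10 genes were called, beside 15.8% of all genes higher and 21.4% lower in IFNγ. Nfkbie (log2 fold change 0.49, edgeR adjusted p = 0.0389) and Bcl3 (0.44, edgeR adjusted p = 0.0367) were higher in IFNγ. Nfkb1 (-0.37, edgeR adjusted p = 0.00102), Nfkbib (-0.31, edgeR adjusted p = 0.00753) and Rel (-0.25, edgeR adjusted p = 0.0458) were lower.

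The calls of Nfkbie, Bcl3 and Rel between IFNγ and αCD3 were lost in 6 or 7 of 14 alternatives each, and leaving out any 1 of the 6 libraries lost at least 1 of these calls. Without αCD3 replicate 1 the log2 fold change of Nfkbie was 0.31. Those of Nfkb1 and Nfkbib were kept in all 14. With the replicate block 7 genes were called, Nfkb2 (log2 fold change -0.20, edgeR adjusted p = 0.0172) and Nfkbiz (0.16, edgeR adjusted p = 0.043) being added. Without the replicate 1 libraries 6 were called, the added gene being Nfkb2. Of all genes, 49.7% and 45.4% were called in these fits, against 37.2% in the first.

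IFNγ and LPS differed for most of the system. In IFNγ against LPS 8 of the 10 genes were lower and none was higher, beside 22.4% of all genes lower and 18% higher. The log2 fold changes of the 8 genes ran from -1.38 (Nfkbiz) to -0.29 (Relb), and the call of Relb was lost without IFNγ replicate 2 or IFNγ replicate 3 and with library size as the scaling. Rel, low in IFNγ and high in LPS, differed by -0.61 (SE 0.09, edgeR adjusted p = 0.000263). Nfkbie, which rose in both treatments against Naïve, had a log2 fold change of -0.32 (95% interval -0.69 to 0.04, edgeR adjusted p = 0.147), and with the replicate block it was called lower in IFNγ (edgeR adjusted p = 0.00587), as it was without the replicate 1 libraries. Rela differed by -0.04 (95% interval -0.25 to 0.18).

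αCD3 and LPS also differed for most of the system. In αCD3 against LPS 8 of the 10 genes were lower and none was higher, beside 9.76% of all genes lower and 9.64% higher. All 5 IκB genes were lower, from -1.54 (Nfkbiz) to -0.53 (Nfkbib) on the log2 scale, with Bcl3 at -1.33 and Nfkbia at -1.30. Nfkb1 and Nfkb2 each differed by -0.73 and Rel by -0.36, a call that was lost without αCD3 replicate 3, in a fit of the 6 libraries alone and with library size as the scaling. Relb had a log2 fold change of -0.22 (95% interval -0.40 to -0.05, edgeR adjusted p = 0.0721) and was called lower with the block (edgeR adjusted p = 0.00609) and without the replicate 1 libraries, where 9 genes were called beside 29.4% of all genes.

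Nfkb1 took a larger part of the subunit transcripts in LPS than in Naïve. The mix was taken as the share of each subunit in the summed counts per kilobase of the 5 subunits. Nfkb1 made up 28.8%, 31.8% and 31.4% in Naïve and 40.4%, 43.0% and 42.5% in LPS. The 2 groups did not overlap, and the means differed by 11.3 percentage points, while the SD was 1.62 in Naïve and 1.37 in LPS. In αCD3 the share of Nfkb1 was 35.4% ± 1.4 (SD, n = 3), between those of Naïve and LPS, and in IFNγ it was 31.1% ± 0.777, within the Naïve range.

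The shares of Rela and Relb went the other way in LPS. Rela made up 21.6% ± 1.11 in Naïve and 15.5% ± 0.879 in LPS (SD, n = 3), although its CPM was not lower. Relb went from 22.2% ± 0.262 to 16.7% ± 0.631, and Nfkb2 from 13.5% ± 0.522 to 16.8% ± 0.555. Rel made up 12% ± 0.171 in Naïve, and its share was lower in αCD3 (9.88% ± 0.298), in IFNγ (9.41% ± 1.05) and in LPS (9.05% ± 0.759). The size of a share depends on the gene length used, and that of Rel in Naïve was 17.0% with the longest transcript of each gene as its length and 29.8% with no length correction, with lower shares in the 3 treated groups under both. No test was made of the shares, which sum to a fixed total, so that a higher share of 1 gene lowers those of the others.

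**Figure D4:**
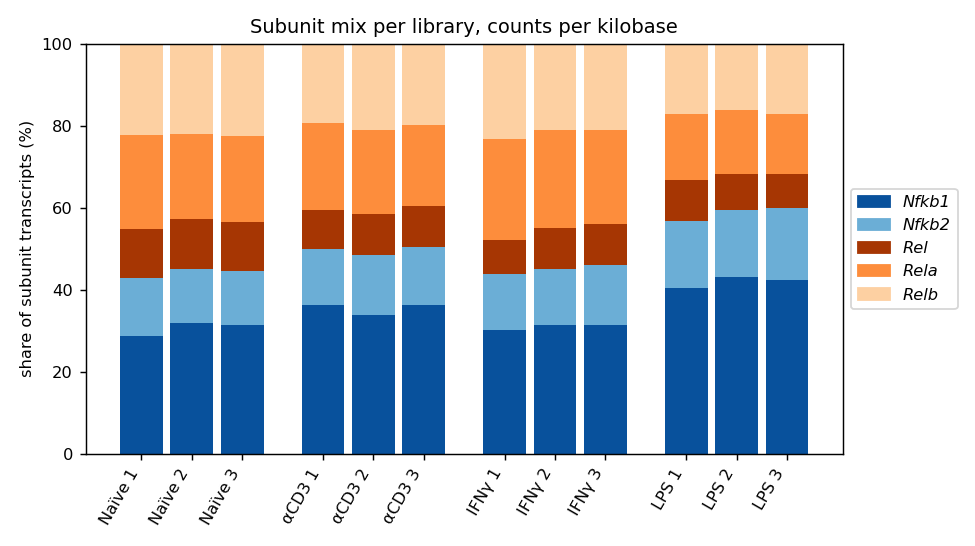
Share of each of the 5 subunit genes in their summed counts per kilobase (vertical axis, %) in each of the 12 libraries. The dark blue part, Nfkb1, covers 28.8% to 31.8% in Naïve and 40.4% to 43.0% in LPS.

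The genes whose levels followed each member most closely over the 12 libraries were found by the root mean square difference of centred log2 CPM, a description with no test in which small values partly follow from small changes. Among the 10 genes themselves, Nfkb1 and Nfkb2 were closest (0.109), followed by Rela and Relb (0.117), Nfkb2 and Nfkbib (0.133), and Nfkb1 and Nfkbib (0.137). Outside the 10, Nfkbia was closest to Traf1 (0.0929), which was at 209 CPM in Naïve and 489 CPM in LPS, and then to Chac1 (0.15). Nfkbiz was closest to Marcksl1 (0.112), at 141 CPM in Naïve and 461 CPM in LPS, and then to Tmcc3 (0.154).

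For Nfkb1 the closest genes were Pim3 (0.108) and Ptger4 (0.139), for Nfkb2 Ifrd1 (0.0929) and Dnajc21 (0.115), and for Nfkbib Rbm17 (0.075) and Aars (0.0857). Nfkbie was closest to Tmem243 (0.123) and Rftn1 (0.153), and Bcl3 to Cxcr5 (0.126), a chemokine receptor of follicular B and T cells, and Atf6 (0.156). Rel was closest to Stt3b (0.0869) and Dennd4b (0.109). Rela and Relb, which had small differences in mean level between groups, had the smallest differences, to Spty2d1 (0.0522) and Thoc2 (0.0649) and to Zfp622 (0.0484) and Dhx8 (0.0539).

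Genes around the 10 were followed in 4 lists. Of 29 tested target genes of NF-κB, 24 rose and 1 fell in LPS against Naïve, with a median log2 fold change of 1.56. These were 82.8% and 3.45% of the list, beside 26.9% and 22.3% of all genes. In αCD3 10 rose and 4 fell (median 0.22), or 34.5% and 13.8%, beside 22.9% and 15.7% of all genes. In IFNγ 7 rose and 3 fell (median 0.17), or 24.1% and 10.3%, beside 8.17% and 4.27% of all genes. With the replicate block 16 target genes were called in IFNγ in place of 10, while the share of all genes called went from 12.4% to 24.9%.

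The target genes that moved most in LPS were Ptgs2, the inducible cyclooxygenase (log2 fold change 3.71, from 9.55 ± 2.77 to 124 ± 76.8 CPM, SD, n = 3), Il1b, which encodes an inflammatory cytokine (2.80, from 73.9 ± 18.1 to 514 ± 312 CPM), and the chemokine gene Cxcl2 (2.53, from 24.1 ± 4.82 to 139 ± 31.0 CPM). The spread of Ptgs2 and Il1b between the LPS libraries was wide. In IFNγ Ptgs2 (2.97) and Il15ra, a receptor chain for interleukin 15 (2.29), rose, and the chemokine gene Ccl22 fell by 1.44 on the log2 scale. In αCD3 Il15ra (2.02), the transcription factor gene Irf4 (1.68, from 159 ± 0.346 to 510 ± 9.1 CPM) and the cytokine gene Tnf (1.17) rose.

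Of 20 feedback regulators, 9 rose and 2 fell in LPS, 3 rose and 7 fell in αCD3, and 3 rose and 1 fell in IFNγ, with medians of 0.40, -0.17 and 0.04. The shares that rose were 45%, 15% and 15%, beside 26.9%, 22.9% and 8.17% of all genes, and the shares that fell were 10%, 35% and 5%, beside 22.3%, 15.7% and 4.27%. The share that rose in αCD3 was thus below that of all genes. Among the called genes Traf1 (log2 fold change 1.22), the RNase gene Zc3h12a (1.16) and Tnfaip3 (0.98, from 402 ± 36.7 to 796 ± 16 CPM, SD, n = 3) moved most in LPS. Tnfaip3 encodes the ubiquitin-editing enzyme A20. Tnip3, at 1.0 in LPS, was not called (edgeR adjusted p = 0.0547). In αCD3 Nfkbid, a further nuclear IκB gene outside the 10, rose (0.64), while Irak3 fell by 0.65 and the phosphatase gene Dusp1 fell by 0.56 on the log2 scale. In IFNγ N4bp1 (0.61) and the deubiquitinase gene Cyld (0.60) rose and Dusp1 fell by 0.47.

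Of 26 upstream kinases and adaptors, 4 rose and 2 fell in LPS, 3 rose and 5 fell in αCD3, and 5 rose and 1 fell in IFNγ, with medians of 0.02, 0.01 and 0.01. The shares that rose were 15.4%, 11.5% and 19.2%, beside 26.9%, 22.9% and 8.17% of all genes, and the shares that fell were 7.69%, 19.2% and 3.85%, beside 22.3%, 15.7% and 4.27%. In LPS both shares were below those of all genes. With library size as the only scaling 3 rose and 4 fell in IFNγ, and 1 rose and 7 fell in αCD3. With the replicate block 11 were called in LPS and 14 in IFNγ, beside 59.5% and 24.9% of all genes. Myd88, the adaptor of Toll-like receptors, rose in LPS (log2 fold change 0.84) and in IFNγ (0.61). Traf2 rose in LPS (0.44), and Map3k14, the kinase of the alternative pathway, fell by 0.45 on the log2 scale. In αCD3 the paracaspase gene Malt1 rose (0.59) and Ikbke fell by 0.76, while Traf5 rose in IFNγ (0.71).

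Of 20 tested receptors that signal to NF-κB, 6 rose and 3 fell in LPS, 3 rose and 4 fell in αCD3, and 5 rose and 1 fell in IFNγ, with medians of 0.31, -0.24 and -0.01. The shares that rose were 30%, 15% and 25%, beside 26.9%, 22.9% and 8.17% of all genes, and the shares that fell were 15%, 20% and 5%, beside 22.3%, 15.7% and 4.27%. In LPS the share that rose was near that of all genes. With the replicate block 14 were called in LPS and 11 in αCD3, beside 59.5% and 52.4% of all genes. Tlr4, the receptor for LPS, was at 15.8 ± 5.87 CPM in Naïve and 5.29 ± 0.876 CPM in LPS (SD, n = 3), and fell by 1.57 on the log2 scale (edgeR adjusted p = 0.000727). Cd180, a relative of Tlr4 known from B cells, fell by 1.34 in LPS. Tlr7 rose in LPS (1.96), in IFNγ (1.89) and in αCD3 (1.23), and Tlr9 (1.45) and Ly86 (1.17) rose in IFNγ. In αCD3 the costimulatory receptor genes Tnfrsf9 (2.78, from 54.7 ± 13.9 to 375 ± 85.7 CPM) and Cd27 (1.45) rose.

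**Figure D5:**
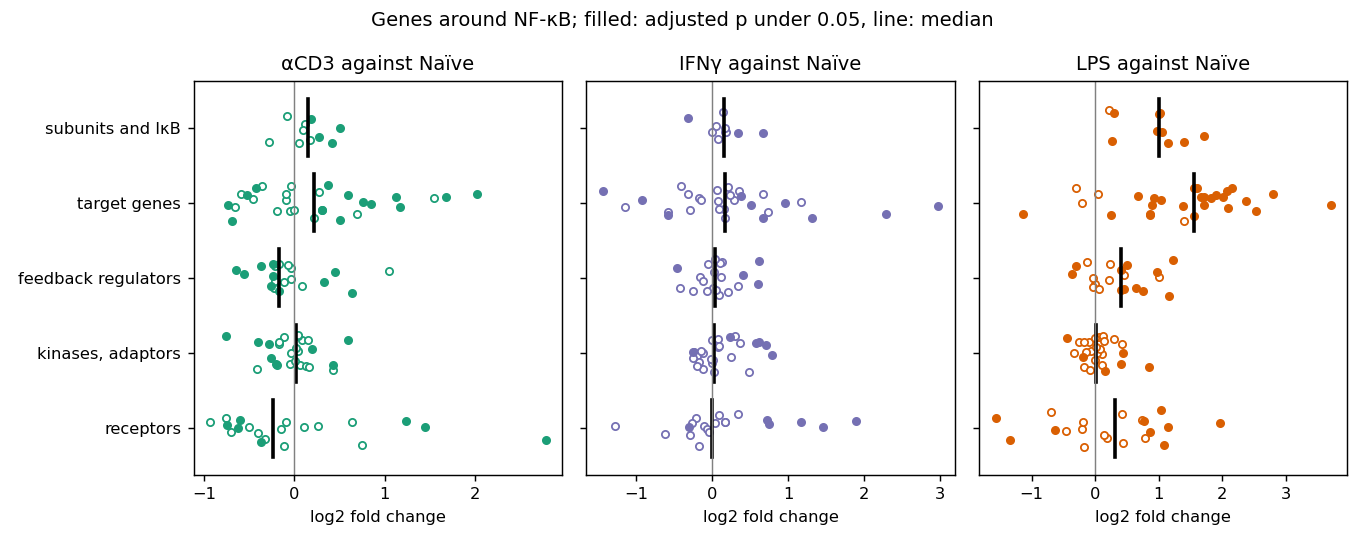
Log2 fold change against Naïve (horizontal axes) of the 10 genes and of each tested gene of the 4 lists, 1 point a gene, in αCD3, IFNγ and LPS, with filled points for an edgeR adjusted p under 0.05 and a line at the median. In LPS the medians of the 10 genes (1.01) and the target genes (1.56) lie to the right, whereas that of the kinases and adaptors is 0.02.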

How the data were processed

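The deposited table holds estimated counts per gene symbol, which the authors made with Kallisto on the mouse genome mm10, 1 column per library, with no scaling and no pooling of replicates. The Kallisto version, the transcript annotation and the strand setting are not given in the sources used here. The study names TMM normalisation and DESeq2 1.24.0.

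Here the expected counts were rounded to whole numbers and tested with the robust quasi-likelihood F-test of edgeR 4.0.16 (R 4.3.3) after TMM scaling. The filterByExpr filter left 12122 genes. All 12 libraries entered 1 fit with group as the term, and the 6 pairs of the 4 groups were contrasts. Benjamini-Hochberg adjustment ran over all tested genes, with 0.05 as the threshold. SE and 95% intervals come from the same fit. CPM is on TMM-scaled library sizes, and levels per kilobase use the mean length of the protein-coding transcripts of GENCODE M21, in which 20620 of the 20778 symbols were found. The script was tested on simulated data.

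Libraries with the same replicate number in different groups deviated together (correlations 0.117 to 0.401 in all 18 pairs, against -0.354 to 0.102 for 36 pairs with different numbers). The numbers thus appear to pair the libraries, on the evidence of the data and not of the labels. The SE, intervals, calls and shares reported come from the fit with group alone, which ignores this pairing, unless the block is named. With the block, 24.9% of all genes were called in IFNγ against Naïve in place of 12.4%. The fit with the replicate number as a block is given where it changes a call of a member. The fit without replicate 1 was chosen after seeing the data. DESeq2 1.42.0, limma-voom (limma 3.58.1), other scalings, no count filter, fits of 2 groups alone and leaving out each replicate were the other alternatives.

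The 10 members, 4 pathway lists and 8 marker lists were chosen with earlier results of these data known. Named from each pathway list were the 3 called genes with the largest change in each comparison with Naïve whose higher group averaged 5 CPM or more, and for each member the 2 closest genes without predicted-gene symbols. Cd8a, Cd79a and Tlr4 as markers of cells or receptor, and single members of lists beyond this rule, were chosen after their values were seen. Not every gene chosen by this rule is reported here.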

Additional observations from a re-analysis of the deposited data

How the results depend on the processing

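Of 840 results of a member in a comparison under an alternative, 744 kept their direction and side of the threshold, 57 lost a call, 23 gained one and 16 changed sign. Leaving out libraries gave 1 to 3 members called in IFNγ against Naïve, 2 to 6 in αCD3 against Naïve, and 2 to 6 in IFNγ against αCD3. Fits of 2 groups alone gave 2 members in αCD3 against Naïve and 3 in IFNγ against αCD3, where no count filter also gave 3, and the replicate block gave 5 in IFNγ against Naïve. The number of all genes called moved in the same fits. Leaving out libraries gave 787 to 2837 of all genes in IFNγ against Naïve (1508 in the fit reported), 3130 to 5947 in αCD3 against Naïve (4681), 3462 to 5540 in IFNγ against αCD3 (4514) and 4760 to 6720 in LPS against Naïve (5974). Fits of 2 groups alone gave 4364 in αCD3 against Naïve and 3882 in IFNγ against αCD3, where no count filter gave 4153. The block gave 3020 in IFNγ, 6349 in αCD3 and 7207 in LPS against Naïve. DESeq2 gave 1811 in IFNγ, and library size alone gave 2279 in IFNγ and 6520 in LPS. The cause of these differences was not tested.

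With library size as the only scaling the median of all genes moved to -0.16 (IFNγ), -0.13 (αCD3) and -0.22 (LPS), and members near 0 changed sign: Nfkb1 (-0.09), Nfkb2 (-0.07) and Nfkbia (-0.0011) in IFNγ, Relb (-0.06) and Nfkbia (-0.0054) in αCD3, and Rela in LPS (-0.00023), in IFNγ against LPS (0.034) and in αCD3 against LPS (0.013). Leaving out libraries gave both signs for Relb in IFNγ (-0.10 to 0.04), for Rela (-0.0097 to 0.13) and Nfkbia (-0.017 to 0.09) in IFNγ against αCD3, and for Rela in IFNγ against LPS (-0.10 to 0.017). None of these was called in the fit reported.

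In the lists, whose counts are to be read beside those of all genes above, IFNγ against Naïve gave 14 kinases and adaptors and 16 target genes with the block, and 10 kinases and adaptors with DESeq2. The block gave 11 receptors in αCD3, and 11 kinases and adaptors and 14 receptors in LPS, where library size alone gave 13 kinases and adaptors. That scaling also moved the split of calls against Naïve. In IFNγ 3 feedback regulators rose and 3 fell, 6 target genes rose and 6 fell, and 5 receptors rose and 1 fell. In αCD3 2 feedback regulators rose and 10 fell, 8 target genes rose and 5 fell, and 3 receptors rose and 4 fell. Leaving out libraries gave, for IFNγ, 3 to 13 kinases and adaptors, 3 to 7 feedback regulators, 6 to 18 target genes and 2 to 8 receptors, for αCD3, 4 to 12, 5 to 15, 8 to 21 and 4 to 15, and for LPS, 4 to 12 kinases and adaptors and 7 to 15 receptors. The replicate block changed no other call of a member than those given in the report. The Nfkb1 share in LPS was 10.9 or 11.1 percentage points higher than in Naïve with other length corrections.

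Depth was not limiting for the members, each counted at least 1068 times in every library. With 3 libraries a group, the size of a difference that was called depended on the spread of the gene. In αCD3 against Naïve, Nfkbiz was called at a log2 fold change of 0.18 (SE 0.06), but Bcl3 at -0.28 (SE 0.15) was not. Nfkbie at -0.32 (SE 0.17) in IFNγ against LPS was not called either.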
